A study of Homo sapiens with 18 samples.

Results

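The 6 libraries labelled MHCC-97H, a human liver cancer cell line, were used to describe how gene expression differed after H3B-8800 across all measurable genes. They are 6 of the 18 libraries in the series and were chosen by line label. RNA sequencing counts were available for 3 libraries of cells given DMSO, the solvent control, and 3 of cells given 20 nM H3B-8800 for 24 h. All 6 carry the genotype label WT and were grown in high-glucose DMEM with 10% serum. Of 20263 genes in the deposited table, 12827 passed the low-count filter in these libraries. Nothing in the labels tells whether replicate libraries were grown as separate cultures. The p-values therefore describe only the spread between these libraries, which may be technical.

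H3B-8800 is a small molecule that modulates SF3B1, the largest subunit of the SF3B complex. SF3B sits in the U2 particle of the spliceosome, where it helps to hold the branch point of an intron before the intron is cut out. Modulators of this kind change which branch points are used, so that introns can stay in the RNA and exons can be skipped, and transcripts altered in this way can be destroyed by nonsense-mediated decay. Counts per gene, as used here, show how much RNA was assigned to a gene and not which introns or exons it held. In bulk samples, fewer cells of a type and less RNA per cell cannot be told apart.

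The 6 libraries held 28232315 to 41488278 counts, which differed between the groups by less than the spread within them (exact permutation test, two-sided p = 0.4). Log2 expression correlated at 0.982 to 0.986 within groups. The liver label was checked against 16 hepatocyte genes. Of these, 13, ALB and AFP among them, had 0 counts in all 6 libraries, which allows up to 0.0142 CPM (3 counts over the 6 libraries). CPM in this paragraph are counts scaled to a common library total, and in later paragraphs the totals are adjusted by TMM factors. Only the transcription factor HNF4A reached 1 CPM (mean 4.86), so the genes that define a hepatocyte were at or near 0. The keratin KRT17 averaged 1513 CPM, the keratin KRT8 785 CPM and vimentin, VIM, 1187 CPM. The 10 epithelial markers summed to 2026 to 2053 CPM in controls and 1757 to 1816 CPM in treated libraries, and all 7 intestinal markers had 0 counts. The part of cell composition in the results below was not tested.

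The treated libraries differed from the controls along 3 properties of genes. Transcripts poor in G and C, long transcripts and genes with many introns had more counts after H3B-8800. Each library was summarised by the slope of log2 CPM, taken as the deviation from the gene's mean over the 6 libraries, on all 3 properties together. The slope on GC content was 0.060, 0.111 and 0.123 log2 units per 10 points of GC in the controls and -0.096, -0.135 and -0.063 in the treated libraries. For exonic length it was -0.041, -0.193 and -0.167 per 10-fold in controls and 0.125, 0.112 and 0.163 in treated libraries. For intron number it was -0.047, -0.093 and -0.080 per 10-fold in controls and 0.083, 0.076 and 0.060 in treated libraries. The groups did not overlap for any of the 3 slopes, and each exact permutation p was 0.1, the smallest that 3 libraries against 3 can give (two-sided, 0.1 also after adjustment over the 3). DMSO replicate 1 was the control nearest to the treated libraries in every slope. In the same way, the count-weighted GC content of a library was 51.8 ± 0.0806% in controls and 51.1 ± 0.145% in treated libraries (SD, n = 3), without overlap.

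**Figure D1:**
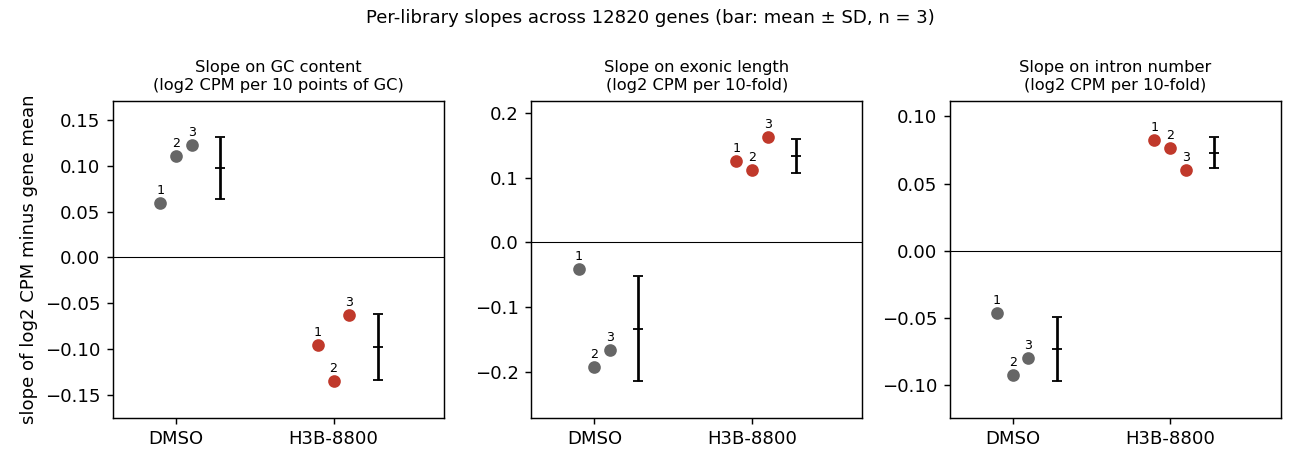
Slope of log2 CPM, as deviation from the gene's mean, on transcript GC content, exonic length and intron number, fitted together across 12820 genes. Points are libraries with their replicate numbers, bars are mean ± SD (n = 3), and on each property the 3 treated libraries lie on the other side of 0 from the 3 controls.

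Results are given from a pair of fits side by side. The uncorrected fit takes the counts as they are. The other first removes from each library its own smooth trend on GC content and exonic length. By construction it also removes any part of a response that follows these 2 properties, so the trend in the libraries and a response of the cells along the same line cannot be told apart. Integrity of the RNA was assessed by the submitters, and those values were not used here. The part of RNA quality and library preparation in the trend was not tested.

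In the uncorrected fit, 4039 of 12827 genes (31.5%) were called at an edgeR adjusted p under 0.05. After H3B-8800, 2290 of the 12827 (17.9%) were higher and 1749 (13.6%) lower. The higher genes moved further: their median log2 fold change was 0.58 against -0.245 for the lower genes, and 287 of the higher but 15 of the lower genes had an absolute log2 fold change of 1 or more. In 245 of those 287 genes the highest of the 3 controls was DMSO replicate 1. Without that library, 543 genes changed by at least 1. Without DMSO replicate 3, 2549 genes were called in all. With the trend removed, 2190 of 12820 genes (17.1%) were called, 1080 (8.42%) higher and 1110 (8.66%) lower, and 34 of the higher and 9 of the lower genes changed by at least 1. Scaling by library totals in place of TMM factors gave 2708 higher and 831 lower genes uncorrected (76.5% higher, against 56.7%), and 2572 and 512 with the trend removed (83.4% higher, against 49.3%). Upper-quartile factors gave 49.7% higher in the uncorrected fit, all 18 libraries together 46.7%, and with the trend removed 59.7%. Under library totals, the all-gene median went from -0.02 to 0.05 uncorrected and from 0.00 to 0.13 with the trend removed. Relative to that median, the medians of the gene lists below moved by at most 0.0034 and 0.004. A change of scaling shifts all genes by nearly the same amount, so this small movement is no test of the lists. Each list median is to be read beside that of all genes, -0.02 and 0.00. The counts of calls in each list are likewise to be read beside the shares over all genes. These are 17.9% higher and 13.6% lower uncorrected, and 8.42% and 8.66% with the trend removed.

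The calls of the fits overlapped in part. Of the genes higher in the uncorrected fit, 952 (41.6%) were also higher with the trend removed, 1307 were no longer called and 31 were called lower. Of the lower genes, 484 (27.7%) stayed lower, 1246 were no longer called and 19 were called higher. A further 109 genes were higher and 595 lower only with the trend removed. The sets called with the trend removed also depended on how the 2 properties were measured. With the median GC content and length of each gene's protein-coding transcripts in place of the longest transcript and all exons together, 2224 genes were called, of which 1353 matched in sign and 15 were opposite.

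**Figure D2:**
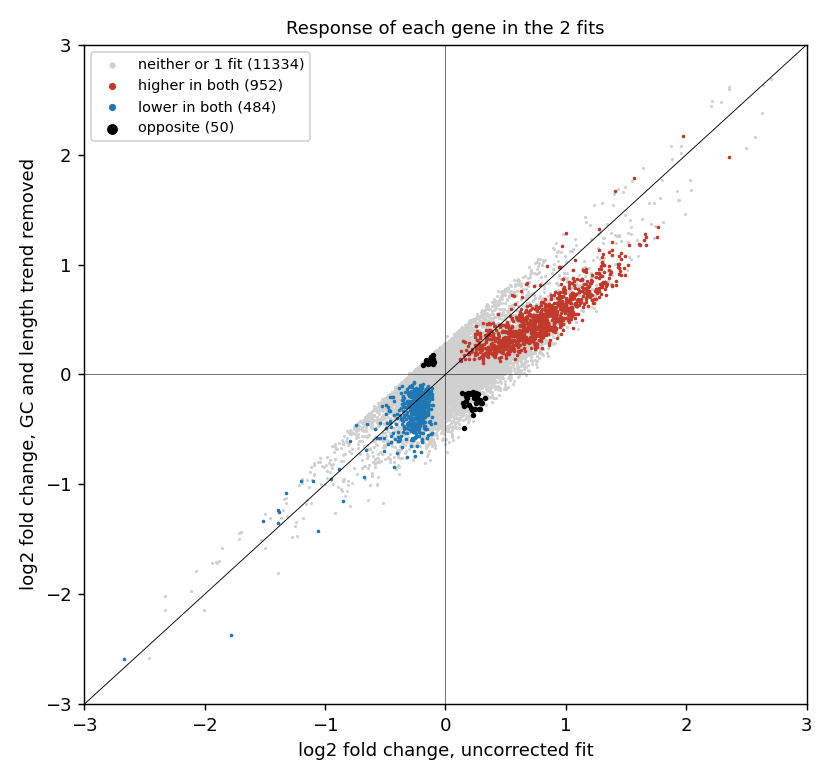
Log2 fold change of each gene with H3B-8800 against DMSO, in the uncorrected fit (horizontal) and after removal of the GC and length trend (vertical). Red points (952) were higher and blue points (484) lower in both fits, black points (50) were called in opposite directions, grey points were called in 1 fit or neither, and 5 genes lie outside the axes. The red points with the largest uncorrected changes lie mostly below the diagonal.

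The uncorrected calls followed GC content closely. In the lowest of 10 equal bins of genes by GC content (30.2 to 38.6%), 40.2% were higher and 1.64% lower. In the highest bin (62.1 to 74.7%), 0.156% were higher and 30.2% lower. The median log2 fold change went from 0.32 to -0.21 between these bins, and across genes the fold change correlated with GC content at rho = -0.564, with exonic length at 0.409 and with intron number at 0.263 (12820 genes, which share their libraries and are not independent replicates). After removal of the trend, the lowest bin had 12.5% higher and 12.6% lower and the highest bin 1.4% and 4.52%, and the 3 correlations were 0.0157, -0.0264 and 0.0867. The removal was incomplete where both properties were extreme: among genes in the lowest of 4 equal bins of both GC content and length, 22.6% were lower and 2.05% higher with the trend removed, and in the highest bin of both 23.2% were lower and 0.483% higher.

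**Figure D3:**
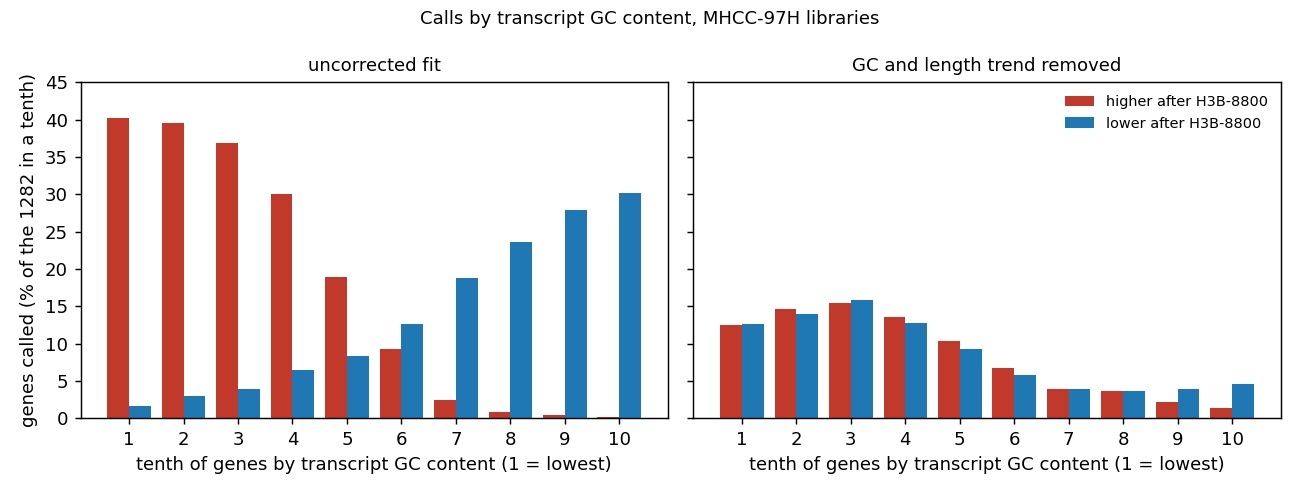
Percent of genes called higher (red) or lower (blue) after H3B-8800 in each of 10 bins of genes by transcript GC content (1282 genes each), in the uncorrected fit (left) and after removal of the GC and length trend (right). On the left the higher calls fall from 40.2% to 0.156% and the lower calls climb from 1.64% to 30.2%.

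Intron number, which the correction did not use, kept a relation to the response. Of 1862 genes with at least 20 introns, 41.7% were higher and 7.89% lower in the uncorrected fit. With the trend removed, 21.6% were higher and 6.61% lower, with a median log2 fold change of 0.08, against 8.42% and 8.66% of all genes. Genes with 5 to 9 introns (3994) had 4.91% higher and 10.9% lower with the trend removed. The 249 single-exon genes had 9.24% higher and 4.02% lower. The gene lists below were not adjusted for intron number, and its part in their balances was not tested.

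SF3B1 itself, the protein that H3B-8800 modulates (chromosome 2, 197389784 to 197435091 on GRCh38), was at 212, 187 and 178 CPM in the controls and 283, 302 and 284 CPM in the treated libraries. All treated libraries lay above all controls, and SF3B1 rose (log2 fold change 0.59, SE 0.07, edgeR adjusted p = 0.0018). With the trend removed the rise was 0.17 (SE 0.04, adjusted p = 0.020), and this call was lost without DMSO replicate 2 or 3 or H3B-8800 replicate 2 or 3 (adjusted p up to 0.07). SLK, a STE20 group kinase that acts on adhesion and the cytoskeleton (chromosome 10, 103967201 to 104029233), was at 28.9, 21.3 and 22.5 CPM in controls and 42.8, 46.7 and 42.1 CPM in treated libraries. It rose by 0.85 (SE 0.12, adjusted p = 0.0027) and by 0.47 with the trend removed (SE 0.09, adjusted p = 0.012; 0.051 without DMSO replicate 3). ENO1, the enolase of glycolysis (chromosome 1, 8861000 to 8879250, exons overlapping ENO1-AS1), was at 5796, 9638 and 5942 CPM in controls and 2643, 5043 and 3116 CPM in treated libraries. The groups did not overlap, but the spread within each was wide and ENO1 was called in neither fit (-0.98, SE 0.36, adjusted p = 0.11, and -0.88, SE 0.36, adjusted p = 0.19). Replicate 2 was the highest in both groups. ENO1 was called in both fits over all 18 libraries (adjusted p = 0.0041 and 0.012) and with the replicate block (0.0064 and 0.011), although the replicate numbers were not taken as pairs.

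The counting of strand was not given, so reads where exons of different genes overlap could not be assigned with certainty. Besides ENO1, this holds for the following genes named below: DDX46, DDX42, HNRNPU, RBM25, SRRM2, DIS3, NUSAP1, ATM, SMARCA5, BPTF, CHD9, H3-3B, YAP1, AMOTL1, RPSA, RPL13, EIF5B, EEF1D, COX4I1, MT-ND4, PSMD1, LDHB, GAPDH, HK2, DLD, STARD4, HIF1A, HSP90B1, GNAI3 and PDK1. HSPA1A has a near-identical copy, HSPA1B, and counts of the pair are uncertain. The calls of SF3B1, GOLGB1, VPS26A, MT-ND4 and PSMB4 with the trend removed were lost in the fit of all 18 libraries (adjusted p = 0.093, 0.064, 0.091, 0.14 and 0.059), as were others given below.

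The partners of SF3B1 in the SF3 and U2 particle did not move as a block. Of 20 tested, 4 were higher and 7 lower uncorrected, and 4 higher and 5 lower with the trend removed (median -0.07 in both fits, against -0.02 and 0.00 for all genes), and scaling by library totals turned the balance of both fits (6 higher and 3 lower, 8 and 4). The helicases DDX46, which remodels the U2 particle (log2 fold change 1.10 and 0.66 with the trend removed), and its relative DDX42 (0.54 and 0.39) were higher in both fits. DDX42 was chosen after its values were seen. U2AF1, which recognises the AG at the end of an intron, was at 41.5, 39.7 and 39.5 CPM in controls and 34.7, 34.6 and 36.1 CPM in treated libraries. It was lower by 0.19 uncorrected (adjusted p = 0.037, lost on leaving out any single library) and by 0.61 with the trend removed (adjusted p = 0.0025), but by 0.09 and not called when the median transcript set the trend. Among 35 other core spliceosome genes, 10 were higher and 7 lower uncorrected, and 3 and 5 with the trend removed, the latter balance turning under library totals (14 and 2). Over all genes, 17.9% were higher and 13.6% lower uncorrected, and 8.42% and 8.66% with the trend removed. DHX15, the helicase that takes spent spliceosomes apart, rose in both fits (0.68 and 0.32).

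SR proteins and hnRNPs, which bind exons and introns to steer splice site choice, had balances of calls that turned between the fits. Of 40 SR proteins, hnRNPs and splicing kinases, 18 were higher and 3 lower uncorrected (median 0.15). With the trend removed 4 were higher and 16 lower (median -0.15), and the median transcript gave 8 and 5, so no direction for this group held across the settings. HNRNPU, which coats nuclear RNA, was at 208, 228 and 227 CPM in controls and 305, 272 and 291 CPM in treated libraries, a rise of 0.39 that became -0.25 and was not called (adjusted p = 0.16) with the trend removed. RBM25 (0.90 and 0.40) and SRRM2 (0.38 and 0.28) were higher in both fits.

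RNA decay genes had more higher than lower calls in both fits. Of 38, 15 were higher and 2 lower uncorrected, and 10 and 2 with the trend removed (median 0.14 and 0.06). The 10 became 5 to 9 when 1 library was left out. Genes that were higher in both included UPF2, a core factor of nonsense-mediated decay, and XRN1, the main 5′ to 3′ exonuclease of the cytoplasm. UPF2 was at 9.97, 6.00 and 5.83 CPM in controls and 17.9, 17.3 and 18.6 CPM in treated libraries, with no overlap (1.30, SE 0.21, adjusted p = 0.0047, and 1.01, SE 0.19, adjusted p = 0.013). XRN1 went from 12.4, 8.63 and 8.24 to 24.4, 22.3 and 24.2 CPM (1.28 and 0.79). The exosome nuclease DIS3 rose by 0.85 and 0.37. The decay-sensitive transcripts tested were 4, too few to describe as a list. Of them, GADD45B was lower uncorrected (-0.42, lost on leaving out any library but DMSO replicate 1, adjusted p up to 0.0667) and not called with the trend removed.

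Genes for building and dividing the nucleus had many more higher than lower calls. Of 39 nuclear pore proteins and transport receptors, 29 were higher and 1 lower uncorrected (median 0.51) and 16 and 1 with the trend removed (0.16). The export receptor XPO4 was at 4.76, 4.35 and 4.08 CPM in controls and 9.50, 11.3 and 9.50 CPM in treated libraries (1.20 and 0.73). XPOT, which exports tRNA, rose by 0.51 and 0.15, and NUP58, a channel nucleoporin, by 0.51 uncorrected, with 0.06 and no call after removal. On leaving out 1 library the 16 ranged from 10 to 17. The second XPOT call was lost without DMSO replicate 3 or H3B-8800 replicate 1 or 2 (adjusted p up to 0.0612).

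Of 40 genes of mitosis, 23 were higher and 3 lower uncorrected (median 0.43), and 19 and 2 with the trend removed (0.23), 18 of them the same higher genes. TOP2A, the topoisomerase that untangles chromosomes, was at 118, 73.3 and 83.6 CPM in controls and 223, 230 and 234 CPM in treated libraries. Its rise was 1.32 (SE 0.19, adjusted p = 0.0062) and 1.00 with the trend removed (SE 0.16, adjusted p = 0.015, lost without DMSO replicate 3 or any 1 treated library). ECT2, which sets up the contractile ring, rose by 1.14 and 0.86, CENPF, a kinetochore protein, by 0.92 and 0.43, and NUSAP1, which bundles spindle microtubules, by 0.65 and 0.51. Of 34 centrosome, cilium and motor genes, 22 were higher and 0 lower uncorrected (median 0.60, with 0 lower also on leaving out any library), and 14 and 1 with the trend removed (0.20). PCM1, the scaffold of centriolar satellites, was at 18.3, 15.6 and 13.8 CPM in controls and 36.7, 39.3 and 36.2 CPM in treated libraries (1.23 and 0.69). The motor KIF5B rose by 1.00 and 0.70. Leaving out 1 library moved the 19 mitosis genes to between 12 and 20 and the 14 centrosome genes to between 7 and 15. DNA replication genes numbered 8 higher and 8 lower of 41 uncorrected and 5 and 5 after removal, but library totals gave 9 and 4, and 12 and 0, and median transcripts 4 and 9. POLA1, the catalytic subunit of the polymerase that starts each new strand, was at 18.98, 10.35 and 13.05 CPM in controls and 36.0, 36.5 and 38.5 CPM in treated libraries (1.39, SE 0.21, and 1.14, SE 0.19, adjusted p = 0.0125 and 0.061 without DMSO replicate 3).

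DNA break repair genes, at 20 higher and 1 lower of 35 uncorrected (median 0.50), had 10 higher and 0 lower with the trend removed (0.23). ATM, the kinase that signals DNA breaks, was at 26.2, 21.1 and 19.5 CPM in controls and 47.6, 48.3 and 43.1 CPM in treated libraries (1.06 and 0.42), although its exons overlap NPAT and C11orf65. The repair polymerase POLQ (1.14 and 0.72) and the helicase BLM (0.81 and 0.49) rose as well. The second calls of ATM and BLM were lost without H3B-8800 replicate 1 (adjusted p = 0.0541 and 0.0502). Leaving out 1 library moved the count of higher repair genes with the trend removed between 3 and 12. Targets of p53 had 2 higher and 6 lower of 27 uncorrected, a balance that turned under library totals (5 and 4), and 1 and 1 after removal. GDF15, a stress hormone among them, was at 132, 130 and 137 CPM in controls and 105, 107 and 104 CPM in treated libraries, lower by 0.34 uncorrected and at -0.06 and not called after removal.

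Chromatin genes had many higher calls as well. Of 32 remodellers, TET enzymes and DNA methyltransferases, 23 were higher and 0 lower uncorrected (median 0.54; 0 lower on leaving out any library), and 16 and 1 with the trend removed (0.23). TET2, which oxidises methylated cytosine in DNA, was at 6.79, 4.43 and 3.42 CPM in controls and 13.5, 12.7 and 20.4 CPM in treated libraries. It rose by 1.67 (SE 0.31, adjusted p = 0.0096) and by 1.17 with the trend removed (SE 0.27, adjusted p = 0.031), and the second call was lost on leaving out any library but DMSO replicate 1 (adjusted p up to 0.115). SMARCA5 (0.73 and 0.32), BPTF (1.17 and 0.70) and CHD9 (1.22 and 0.65), ATP-driven remodellers or parts of one, rose in both fits, SMARCA5 not when the median transcript set the trend. In the fit of all 18 libraries CHD9 was not called after removal (adjusted p = 0.087). Of 37 histone methyltransferases and demethylases, 17 were higher and 4 lower uncorrected, and 11 and 5 after removal. Leaving out 1 library moved the 16 remodellers to between 9 and 16 and these 11 to between 7 and 12. SETD2, which marks transcribed genes, was at 11.9, 9.62 and 8.59 CPM in controls and 27.0, 23.9 and 23.2 CPM in treated libraries (1.30 and 0.90). By contrast, of 18 histone genes 0 were higher and 10 lower uncorrected (median -0.20), and 1 and 6 with the trend removed (-0.12), the latter balance turning under library totals (6 and 5). H3-3B, a replacement histone, was at 365, 386 and 380 CPM in controls and 293, 282 and 280 CPM in treated libraries (-0.40 and -0.39).

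**Figure D4:**
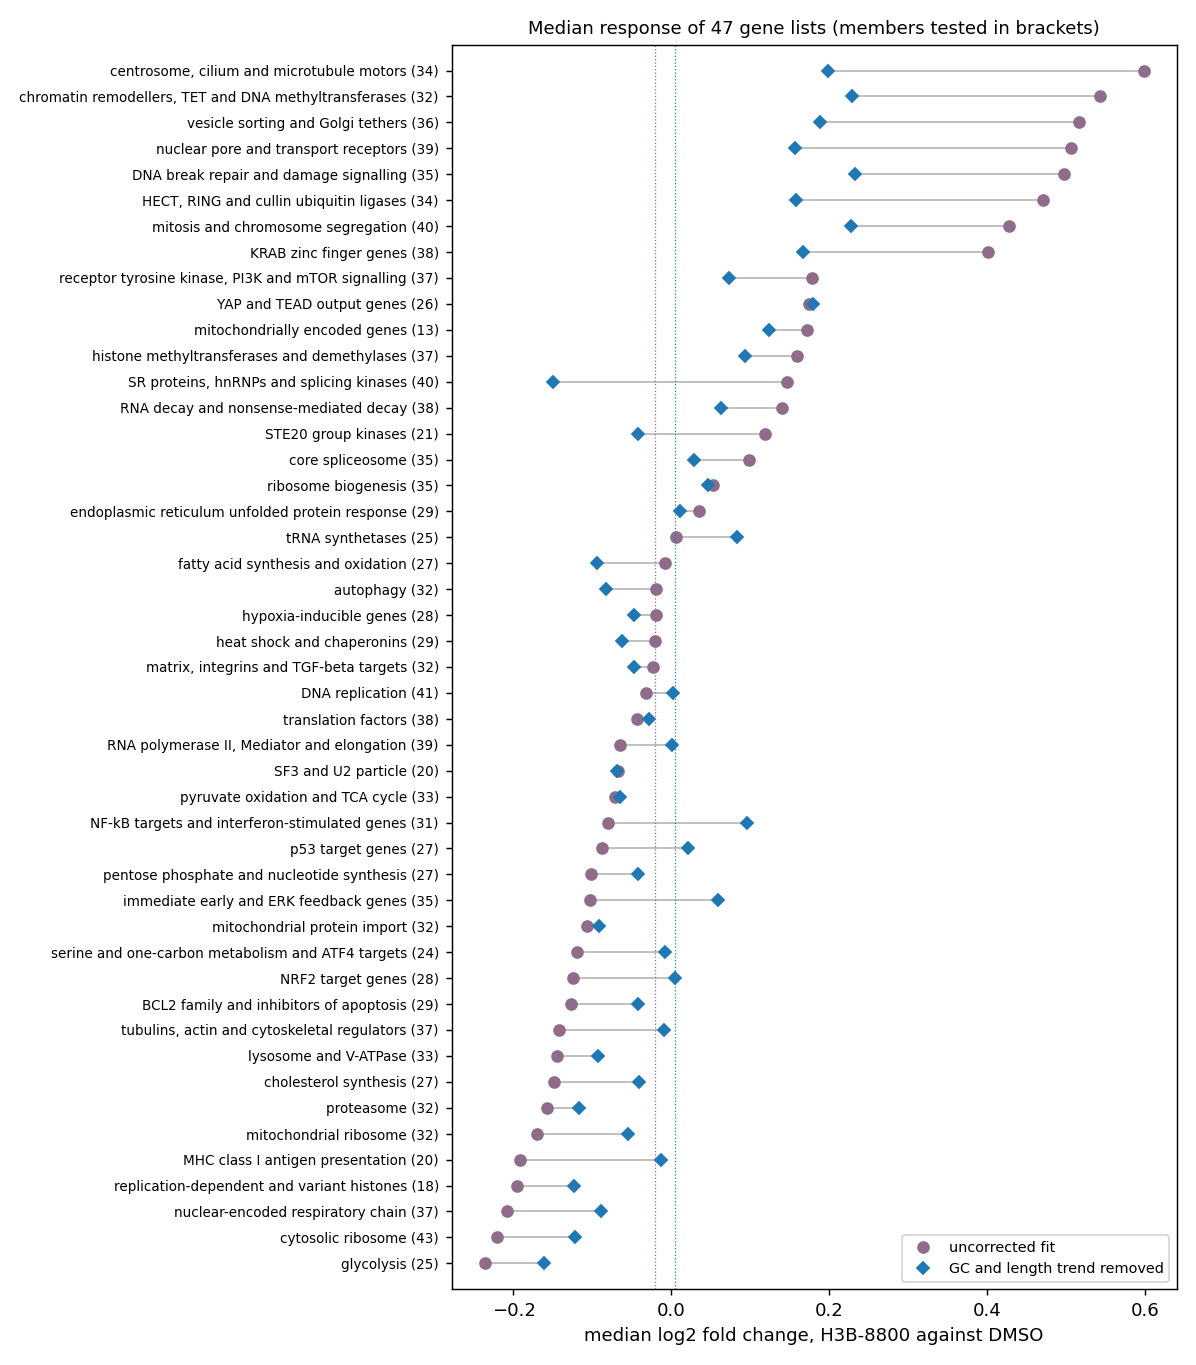
Median log2 fold change of 47 gene lists with at least 10 members tested, in the uncorrected fit (circles) and after removal of the GC and length trend (diamonds). Dotted lines are the medians of all genes. Neither fit takes intron number into account. The lists of nuclear pore, mitosis, centrosome, DNA break repair, chromatin remodeller and mitochondrially encoded genes stay to the right of the lines. Histones and genes of the cytosolic ribosome, nuclear-encoded respiratory chain and glycolysis stay to the left. SR proteins and hnRNPs cross from 0.15 to -0.15. Scaling by library totals moves every median to the right by nearly the same amount.

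Ubiquitin ligases and vesicle sorting genes followed the nuclear groups. Of 34 HECT, RING and cullin ligases, 24 were higher and 1 lower uncorrected (median 0.47), and 10 and 1 with the trend removed (0.16). HUWE1, a very large ligase, was at 347, 296 and 321 CPM in controls and 458, 472 and 502 CPM in treated libraries (0.57 and 0.31). Of 36 vesicle sorting genes and Golgi tethers, 24 were higher and 3 lower (median 0.52), and 10 and 3 after removal (0.19). DNAJC13, an endosomal chaperone partner, had the largest rise with the trend removed among the 10 genes named for it, from 7.27, 4.39 and 3.69 to 15.6, 16.0 and 17.0 CPM (1.66, SE 0.24, adjusted p = 0.0036, and 1.25, SE 0.20, adjusted p = 0.0079). VPS26A, a retromer subunit, was at 53.5, 56.0 and 46.1 CPM in controls and 101, 109 and 96.4 CPM in treated libraries (0.98 and 0.78), and the Golgi tether GOLGB1 rose by 1.12 and 0.65. Without 1 or another library, the 10 ligases ranged from 4 to 11 and the 10 sorting genes from 6 to 9.

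Other genes with large rises in both fits were SOS1, USP24, MAP7D3, AKAP11 and FHIP1A. SOS1, which activates RAS, was at 10.0, 7.94 and 6.05 CPM in controls and 21.3, 20.4 and 23.1 CPM in treated libraries (1.43, SE 0.17, adjusted p = 0.0021, and 1.01, SE 0.15, adjusted p = 0.0061). USP24, a deubiquitinase, was at 25.8, 12.3 and 13.6 CPM in controls and 47.8, 45.1 and 49.7 CPM in treated libraries (1.46, SE 0.30, adjusted p = 0.018, and 1.05, SE 0.25, adjusted p = 0.041). DMSO replicate 1 lay above the other controls. The uncorrected call of USP24 was lost without DMSO replicate 3 or any 1 treated library, and the second call on leaving out any library but DMSO replicate 1 (adjusted p up to 0.122). MAP7D3, a microtubule protein (1.30 and 1.07), AKAP11, an anchor of protein kinase A (1.44 and 1.00), and FHIP1A (0.95 and 0.98) completed the 10 largest rises. The second MAP7D3 call was lost without DMSO replicate 3 or H3B-8800 replicate 1 or 2 (adjusted p up to 0.0618). Among 37 genes of receptor tyrosine kinase, PI3K and mTOR signalling, 17 were higher and 7 lower uncorrected, and 7 and 6 after removal, where library totals gave 19 and 3 and median transcripts 12 and 4. MET, the receptor of hepatocyte growth factor, was at 84.3, 75.2 and 75.3 CPM in controls and 121, 123 and 118 CPM in treated libraries (0.62 and 0.32).

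**Figure D5:**
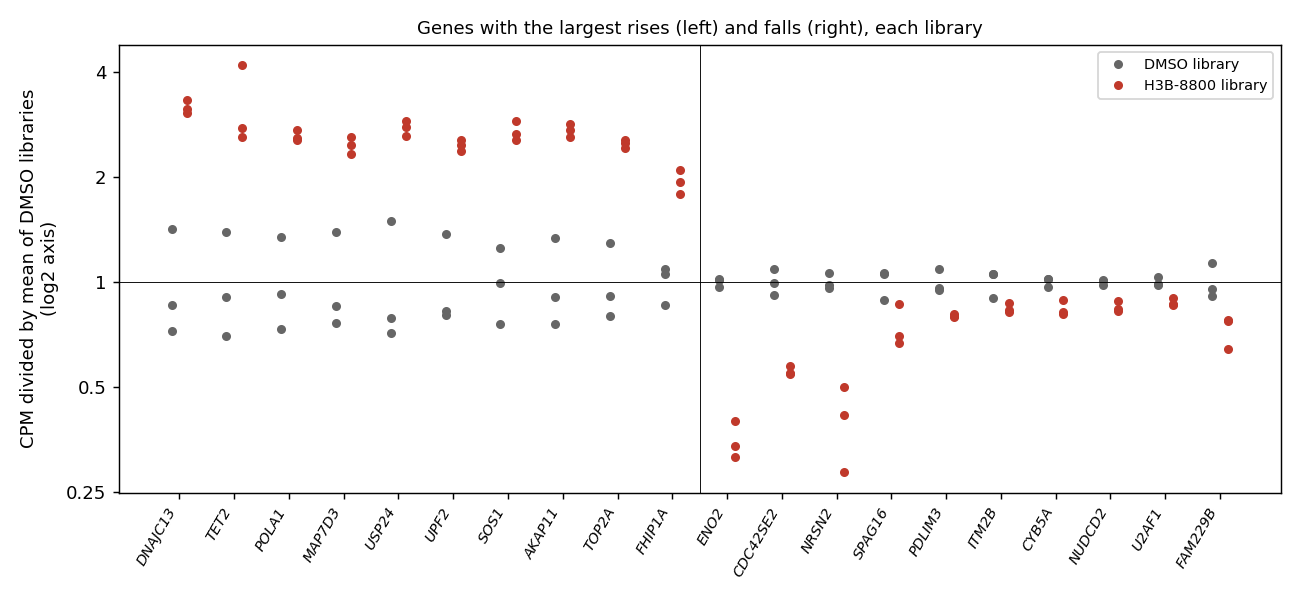
CPM of each library divided by the mean of the 3 DMSO libraries, on a log2 axis, for the 10 largest rises (left) and 10 largest falls (right) that were called in both fits. Grey points are DMSO and red points H3B-8800 libraries. The groups do not overlap for any of the 20 genes, which the rule for choosing them required, and in 9 of the 10 rises DMSO replicate 1 is the highest control.

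YAP and TEAD output genes report on adhesion and cell tension. The list used here also holds factors and regulators of the pathway, YAP1 and AMOTL1 among them, so its counts are not those of outputs alone. It had nearly the same median in both fits. Of 26, 12 were higher and 1 lower uncorrected (median 0.17), and 9 and 0 with the trend removed (0.18). With 1 library left out the 9 moved to between 2 and 10. YAP1, the co-activator itself, was at 134, 125 and 120 CPM in controls and 171, 169 and 163 CPM in treated libraries (0.41 and 0.17, the second call lost without DMSO replicate 3 or H3B-8800 replicate 1 or 2, adjusted p up to 0.0743). MYOF, a membrane repair protein, rose by 0.65 and 0.44 and AMOTL1, a partner of YAP1, by 0.55 and 0.37 (the second call of AMOTL1 lost when the median transcript set the trend). In the fit of all 18 libraries neither YAP1 (adjusted p = 0.23 uncorrected and 0.66 after removal) nor AMOTL1 (0.20 and 0.37) was called. Matrix and integrin genes were mixed, with 9 higher and 7 lower of 32 uncorrected and 5 and 6 after removal, and the direction of either balance depended on the scaling. ITGA2, a collagen receptor subunit, was at 55.2, 57.0 and 59.7 CPM in controls and 122, 131 and 134 CPM in treated libraries (1.17, SE 0.05, adjusted p = 0.00015, and 0.78, SE 0.07, adjusted p = 0.0025). The second call of ITGA2 was lost in the fit of all 18 libraries (adjusted p = 0.18).

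Genes of the cytosolic ribosome were lower, each by a small amount. Of 43 ribosomal protein genes, 0 were higher and 35 lower uncorrected (median -0.22; 0 higher on leaving out any library), and 1 and 25 with the trend removed (-0.12), 24 of them lower in both fits. The counts under library totals were 0 and 28, and 6 and 14, and leaving out 1 library moved the 25 to between 16 and 26. RPSA was at 1720, 1727 and 1776 CPM in controls and 1424, 1420 and 1452 CPM in treated libraries, a narrow spread beside the difference (-0.28 and -0.40). RPL13 was at 814, 815 and 823 CPM in controls and 648, 664 and 684 CPM in treated libraries (-0.30 and -0.18, the second not called under library totals or when the median transcript set the trend). The exons of both overlap small nucleolar RNA genes. Translation factors were split, with 8 higher and 11 lower of 38, and 7 and 9 after removal, balances that turned under library totals. EIF5B, which joins the ribosomal subunits, rose from 37.9, 36.1 and 36.4 to 67.6, 68.1 and 63.8 CPM (0.85 and 0.46), while EEF1D, part of an elongation factor, was lower (-0.50 and -0.49). Of 25 tRNA synthetases, 10 were higher and 2 lower, and 6 and 1 after removal. EPRS1 was at 175, 148 and 140 CPM in controls and 268, 282 and 258 CPM in treated libraries (0.80 and 0.59).

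The respiratory chain is built from subunits encoded in the nucleus and in mitochondrial DNA. Of 37 nuclear-encoded respiratory chain genes, 1 was higher and 24 lower uncorrected (median -0.21), and 1 and 13 with the trend removed (-0.09), where library totals gave 9 and 10. COX4I1, a subunit of cytochrome oxidase, was at 287, 295 and 300 CPM in controls and 252, 250 and 253 CPM in treated libraries (-0.22 and -0.24, not called when the median transcript set the trend). UQCRC1 was lower by 0.24 uncorrected and at 0.00 and not called after removal. Of 13 genes encoded in mitochondrial DNA, 7 were higher and 0 lower uncorrected (median 0.17), and 6 and 1 after removal (0.12). Leaving out any library gave 7 to 11 higher and 0 lower uncorrected, and 2 to 7 higher and 1 to 2 lower after removal. The median transcript gave 3 and 2. Removing the GC trend alone gave 1 higher and 2 lower, and the length trend alone 11 and 0. The fit of all 18 libraries gave 3 and 0 uncorrected, and 1 and 0 after removal. MT-ND5, a subunit of complex I, was at 680, 624 and 656 CPM in controls and 823, 802 and 798 CPM in treated libraries (0.31 and 0.27), and MT-ND4 rose by 0.26 and 0.20. All genes encoded in mitochondrial DNA together held 1.17 ± 0.0401% of counts in controls and 1.38 ± 0.0125% in treated libraries (SD, n = 3), without overlap (exact permutation p = 0.1, the smallest possible). The 32 mitochondrial ribosome genes had 0 higher and 10 lower, and 0 and 7 after removal (0 higher on leaving out any library in both fits).

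The proteasome, which degrades ubiquitin-tagged proteins, had 1 higher and 12 lower of 32 genes uncorrected (median -0.16), and 1 and 10 with the trend removed (-0.12). After removal, library totals gave 5 and 8, and the lower genes numbered 6 to 9 on leaving out 1 library. PSMB4, a core subunit, was at 386, 394 and 402 CPM in controls and 331, 345 and 344 CPM in treated libraries (-0.21 and -0.14, the second call lost without DMSO replicate 3 or H3B-8800 replicate 1 or 2, adjusted p up to 0.0947). PSMD1, a scaffold of the regulatory cap, was the 1 higher gene (0.50 and 0.33, the second call lost without H3B-8800 replicate 1, adjusted p = 0.0573). Of 33 lysosome genes, 15 were lower and 3 higher, and 6 and 1 after removal, with library totals turning the latter (7 higher and 3 lower). Tubulins, actin and their regulators had 1 higher and 19 lower of 37 uncorrected (median -0.14) but 3 and 7 after removal (-0.01), which library totals turned (12 and 4). Genes of MHC class I presentation had 1 higher and 10 lower of 20 (median -0.19), and 1 and 2 after removal (-0.01, turned by library totals to 3 and 0). Transcript GC content had a median of 54.3% in that list and 48.8% over all genes.

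Glycolysis, the pathway in the series title, kept 9 of its 18 lower calls. Of 25 genes, 3 were higher and 18 lower uncorrected (median -0.24), and 0 and 9 with the trend removed (-0.16), all 9 lower in both fits. Scaling by library totals with the trend removed gave 7 higher and 6 lower. Median transcripts gave 2 and 6 (median -0.05), and a joint GC by length surface 0 and 9 (-0.08). Without DMSO replicate 1 there were 1 and 9 (-0.07), so the size of the list median depended on the setting. ENO2, the neuronal enolase (chromosome 12, 6913745 to 6923698), had the largest fall with the trend removed among the 10 genes named for it. It was at 463, 487 and 482 CPM in controls and 190, 161 and 150 CPM in treated libraries (-1.51, SE 0.09, adjusted p = 0.0011, and -1.34, SE 0.09, adjusted p = 0.0023). LDHB, a lactate dehydrogenase subunit, was at 699, 715 and 701 CPM in controls and 379, 369 and 348 CPM in treated libraries, and its fall was -0.95 in both fits (adjusted p = 0.00012 and 7.5e-05). GAPDH, at 19843, 20680 and 20534 CPM in controls and 16774, 16919 and 17247 CPM in treated libraries, was lower by 0.26 uncorrected but at -0.01 and not called after removal, and at 0.11 and called higher after removal with library totals. Hexokinase HK2, chosen here after its values were seen, was at 2554, 2628 and 2593 CPM in controls and 930, 1195 and 842 CPM in treated libraries (-1.39 and -1.36). LDHA, also chosen after its values were seen, was at 1364, 1304 and 1341 CPM in controls and 559, 305 and 797 CPM in treated libraries, which did not overlap, but was not called (-1.27, adjusted p = 0.066, and -1.48, adjusted p = 0.072). Without H3B-8800 replicate 2, the lowest, LDHA was called in both fits (-0.98, adjusted p = 0.0285, and -1.18, adjusted p = 0.042). It was also called without H3B-8800 replicate 3 uncorrected (adjusted p = 0.036), and in both fits over all 18 libraries (0.011 and 0.013) and by DESeq2 (0.0031 and 0.0011).

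Other metabolic lists were smaller in their response. Of 33 genes of pyruvate oxidation and the TCA cycle, 5 were higher and 8 lower, and 3 and 7 after removal, both turned by library totals. DLD, the shared dehydrogenase subunit of these complexes, was at 35.7, 35.8 and 37.5 CPM in controls and 83.0, 94.9 and 91.3 CPM in treated libraries, a rise of 1.30 (SE 0.06, adjusted p = 0.00018) and 1.02 (SE 0.07, adjusted p = 0.0011). Its exons overlap LAMB1, which rose by 0.53 and 0.42, and strand was not given. ACO1, an aconitase that also binds iron-responsive RNA, rose from 118, 110 and 113 to 194, 263 and 239 CPM (1.03 and 0.81). Cholesterol synthesis had 4 higher and 9 lower of 27, and 1 and 5 after removal, the latter turned by library totals. STARD4, a sterol carrier, rose by 0.92 and 0.70, and EBP was lower by 0.24 uncorrected and at -0.03 and not called after removal. Genes of hypoxia had 6 higher and 8 lower of 28, and 4 and 8 after removal, both turned by library totals. HIF1A, the oxygen-regulated factor, was at 95.6, 77.4 and 78.8 CPM in controls and 137, 141 and 131 CPM in treated libraries (0.70 and 0.45).

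Stress programmes showed no common direction across settings. Heat shock genes and chaperonins had 3 higher and 8 lower of 29 uncorrected, turned by library totals, and 6 and 5 after removal. HSPA1A, an inducible chaperone, was at 1226, 1277 and 1275 CPM in controls and 941, 969 and 975 CPM in treated libraries (-0.39 and -0.12, the second call lost without DMSO replicate 2 or 3 or H3B-8800 replicate 1 or 3, and the value near 0 with library totals). Unfolded protein response genes had 10 higher and 4 lower of 29, and 4 and 5 after removal. HSP90B1, a chaperone of the endoplasmic reticulum, rose by 0.41 and 0.17. Immediate early and ERK feedback genes had 4 higher and 10 lower of 35 (turned by library totals), and 8 and 3 after removal, but 3 and 6 when the median transcript set the trend. NF-kB and interferon genes had 4 higher and 6 lower of 31, and 3 and 1 after removal. KRAB zinc finger genes, a family of repressors, lie outside these programmes. Of 38, 8 were higher and 0 lower uncorrected (median 0.40), with 0 lower on leaving out any library. After removal 1 was higher and 1 lower, while the list median was 0.17, above that of all genes. Over all genes, 17.9% were higher and 13.6% lower uncorrected, and 8.42% and 8.66% after removal.

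CDC42SE2, an effector of the GTPase CDC42, was at 50.3, 45.9 and 42.4 CPM in controls and 25.4, 26.4 and 25.1 CPM in treated libraries (-0.85, SE 0.08, adjusted p = 0.0017, and -1.16, SE 0.06, adjusted p = 0.00052). NRSN2 was at 15.5, 14.1 and 14.3 CPM in controls and 4.16, 6.07 and 7.31 CPM in treated libraries (-1.33 and -1.08). SPAG16, PDLIM3, ITM2B, CYB5A, NUDCD2, U2AF1 and FAM229B completed the 10, at -0.19 to -0.45 uncorrected and -0.61 to -0.85 with the trend removed. Of these 7, PDLIM3 and U2AF1 were not called when the median transcript set the trend (-0.24 and -0.09). Uncorrected, the calls of SPAG16, PDLIM3, ITM2B, CYB5A, U2AF1 and FAM229B were lost on leaving out 3 to 6 of the 6 libraries in turn, and that of NUDCD2 was not. After removal, the call of ITM2B was lost without any 1 treated library (adjusted p up to 0.055), and that of FAM229B without DMSO replicate 2 or 3 or H3B-8800 replicate 1 or 2 (up to 0.072) and with a joint GC by length surface (0.053). In the fit of all 18 libraries NRSN2 was called in neither form (adjusted p = 0.061 and 0.23).

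In 50 genes the fits gave opposite calls. The 4 named by the smaller of their 2 p were all higher uncorrected and lower with the trend removed. DMD, which encodes dystrophin, was at 341, 321 and 316 CPM in controls and 385, 395 and 381 CPM in treated libraries, without overlap (0.25 and -0.32). GNAI3, a G protein subunit, gave 0.15 and -0.48, PDK1, the kinase that restrains pyruvate dehydrogenase, 0.30 and -0.26, and ACTR3, part of the actin-branching complex, 0.20 and -0.28. When the median transcript set the trend, PDK1 and ACTR3 were at 0.10 and 0.15. The lower call of PDK1 was lost on leaving out any library but DMSO replicate 1 (adjusted p up to 0.0789) and with library totals (0.090) or median transcripts (0.10). In the fit of all 18 libraries DMD was called in neither form (adjusted p = 0.34 and 0.20), and the higher calls of GNAI3 (0.11), PDK1 (0.094) and ACTR3 (0.093) were lost.

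The response was set against that under the other 2 line labels, MDA-MB-231 and HCT-116, whose libraries share 1 expression profile and so stand for 1 comparison. The difference between the MHCC-97H effect and the mean of the other 2 effects was tested over all 18 libraries. It was called for 3615 of 14234 genes (25.4%), and for 1838 of 14223 (12.9%) with the trend removed. In the uncorrected contrast, 22 of the 25 glycolysis genes differed, 31 of the 43 ribosomal protein genes and 26 of the 39 nuclear pore and transport genes. These list counts hold both directions and were not taken with the trend removed. Over all genes, library totals left 363 lower differences against 1876. Uncorrected, ENO2 differed by -1.64 (edgeR adjusted p = 5.7e-08), SLK by 0.93 (adjusted p = 0.0024) and TET2 by 1.74 (adjusted p = 0.0057). With the trend removed these differences were -1.36, 0.56 and 1.27 (edgeR adjusted p = 6.3e-07, 0.0014 and 0.0087). FHIP1A and NRSN2 differed by 0.74 and -0.97 uncorrected and were not called (adjusted p = 0.21 and 0.28). In all, treated and control libraries did not overlap for 6288 genes (49%) uncorrected and 4911 (38.3%) with the trend removed.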

How the data were processed

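Total RNA was extracted with Trizol, per the labels' protocols. Reads were handled with fastp and HISAT2 on GRCh38, per the submitters' processing notes; for the versions, counting tool, annotation release, strand and library kit, the entry is "not given in the sources used here". The deposited values are raw read counts per Ensembl gene, made by the authors and not normalised. Of 20263 genes, 20224 were found in GENCODE 29, which gave symbols, GC content of the longest transcript, union exonic length, introns and exon overlaps.

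Genes passing filterByExpr were tested with edgeR 4.0.16 (R 4.3.3) by the quasi-likelihood test on TMM-scaled counts of the 6 libraries, with Benjamini-Hochberg adjustment and a threshold of 0.05. CPM are TMM-scaled. For the second fit, natural splines (5 degrees of freedom each) of GC content and log10 exonic length were fitted per library to log2 CPM and entered as offsets, and TMM factors were taken again. Simulated data were used to test the scripts. The difference from the other line labels was fitted over 18 libraries. Non-overlap means that all treated libraries lay on one side of the controls.

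Named were SF3B1, SLK and ENO1, then the 10 largest rises and falls with the trend removed among protein-coding genes averaging at least 10 CPM, with no exon overlap, no overlap of groups and calls of the same sign in both fits, up to 4 genes with opposite calls, and up to 3 members of each list by adjusted p. The part studied, the lists and the rules were chosen with earlier results of these data known. Alternatives were other scaling, filters, limma 3.58.1 voom, DESeq2 1.42.0, all 18 libraries, a replicate block, each trend alone, and each library left out. A joint GC by length surface, scaling factors kept from the uncorrected counts, and GC and length as medians over coding transcripts were added after seeing the data. Deviations from group means of same-numbered control and treated libraries correlated at 0.0418, 0.149 and 0.0496 across 8300 genes. Libraries with different numbers correlated at -0.203 to 0.150, and these values cannot settle whether the numbers mark pairs. The labels do not state pairs, so the numbers were not taken as pairs.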

Additional observations from a re-analysis of the deposited data

Results flagged for a closer look

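The response in the MHCC-97H libraries differed from the mean response under the other 2 labels, by a contrast tested over all 18 libraries with edgeR, for 3615 genes. The other labels share 1 profile, so this is a difference between 2 profiles, and their effects were not tested apart. Among the genes named by the rule, the uncorrected difference on the log2 scale was positive for SF3B1 (0.733), SLK (0.929), DNAJC13 (1.89), TET2 (1.74), POLA1 (1.45), MAP7D3 (1.51), USP24 (1.60), UPF2 (1.46), SOS1 (1.48), AKAP11 (1.61) and TOP2A (1.49). It was negative for ENO1 (-1.12), ENO2 (-1.64), CDC42SE2 (-0.817), PDLIM3 (-0.407), ITM2B (-0.374), NUDCD2 (-0.320) and U2AF1 (-0.297). For DMD it was 4.05, while its log2 fold change in the MHCC-97H libraries was 0.25 uncorrected. Most of that difference therefore lies in the effects under the other labels.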

How the results depend on the processing

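The GC trend alone gave 2532 called genes (1334 higher, 92 changed by at least 1) and the length trend alone 127 changed by at least 1. With library totals, 831 genes were lower uncorrected, and with the trend removed 2572 were higher, 512 lower and 93 changed by at least 1. In the difference from the other labels, library totals left 363 lower against 1876. With the trend removed, 116 genes changed by at least 1 in the fit of all 18 libraries and 70 with median transcripts, against 43. Leaving out 1 library moved the uncorrected calls between 2549 and 3877 (lower 861 to 1449, changed by at least 1 235 to 543) and those with the trend removed between 1057 and 2549 (higher 506 to 1247, lower 551 to 1302, changed by at least 1 35 to 119). The replicate block gave 3501 calls uncorrected and, with the GC and length trend, 1645 (791 higher, 854 lower, 46 changed by at least 1). Whether the replicate numbers mark pairs was not settled, so the block is given as an alternative only. Control 1 correlated at 0.0418 with treated library 1 and at 0.0550 with treated library 2.

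Single genes changed sign relative to the uncorrected fit under the GC trend alone, the length trend alone, and both with the replicate block. These were ACTR3 (-0.11, -0.11, -0.28), DMD (-0.026, -0.18, -0.31), GNAI3 (-0.14, -0.34, -0.48) and PDK1 (-0.024, -0.065, -0.25). HNRNPU was at -0.073 with the length trend and -0.25 with both and the block, and UQCRC1 at 0.0029 with both and the block. With the trend removed, median transcripts gave ACTR3 0.15 and PDK1 0.10, and library totals gave GAPDH 0.11 and HSPA1A 0.00058. The cause was not tested. With 3 libraries a group no exact test of a single value can pass 0.05, and genes under about 10 CPM are the least precise.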

Other observations

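The largest fold changes included gene models that share exons with neighbours, given here as values and chosen after they were seen. TOMM6, a small subunit of the mitochondrial import pore (chromosome 6, 41787662 to 41789898), was at 55.7, 59.0 and 59.7 CPM in controls and 7.74, 5.69 and 14.1 CPM in treated libraries. Its log2 fold change was -2.67 (SE 0.35, edgeR adjusted p = 0.0051) and -2.59 with the trend removed. ENSG00000124593, whose span of 41780349 to 41790141 covers TOMM6 and which overlaps exons of FRS3, PRICKLE4 and USP49 too, was at 10.1, 9.18 and 9.91 CPM in controls and 40.5, 38.6 and 35.6 CPM in treated libraries (1.97, SE 0.08, adjusted p = 0.00012, and 2.17). TOMM6 was lower and the longer model higher in all 3 treated libraries. Counts per gene do not show which exons the reads came from.

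ENSG00000272772 (chromosome 5, 134167170 to 134226071), which shares exons with SKP1, a ubiquitin ligase subunit, and PPP2CA, a phosphatase subunit, was at 0.569, 0.402 and 0.246 CPM in controls and 10.9, 15.1 and 13.5 CPM in treated libraries (5.02 and 5.25). ENSG00000255508, which shares exons with EEF1G and TUT1, was at 16.9, 14.6 and 16.2 CPM in controls and 5.41, 6.59 and 6.25 CPM in treated libraries (-1.39 and -1.23).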
